A study of Homo sapiens with 36 samples.

Results

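The response of the breast cancer line BT549 to 24 h of selumetinib was followed on 6 of the 36 arrays of the series, 3 from treated cells and 3 from siCONTROL cells, chosen by their titles. The 24 h cells carried a non-targeting siRNA at 10 nM and were exposed to 1 uM selumetinib (AZD6244) for their last 24 h, and the siCONTROL cells carried the same siRNA and received the solvent DMSO. Both were collected 96 h after transfection, so every group used here had been through transfection. BT549 arrays after 4 h of the drug, and the 24 h and siCONTROL arrays of MDA231 and SUM159PT, served as comparisons, with 3 arrays a group, as did BT549 cells given 10 nM of siRNA against DUSP4 and no selumetinib (siDUSP4). The titles and the cell line field place the BT549 arrays in that line, while the source name and the description of the same arrays give SUM159PT. For the arrays titled SUM159PT the same fields also disagree over BT549 and SUM159PT. The line is therefore taken from the title throughout, and comparisons with SUM159PT rest on that choice too. Whether the letters A, B and C stand for separate cultures is not stated. The p-values measure change against the spread between arrays within groups, pooled over all 36 arrays of the series. That spread could be technical, and it comes mostly from groups other than the ones compared. All 17958 genes with a probe of a single symbol were compared.

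Selumetinib blocks the kinases MEK1 and MEK2, which activate ERK. Active ERK drives immediate early genes such as EGR1, growth factor and cytokine genes, and a set of inhibitors that feed back on the pathway, among them the phosphatases DUSP4, DUSP5 and DUSP6 and the Sprouty proteins. Transcripts of these genes are widely used as a readout of ERK activity. BT549 is a mesenchymal-like line without hormone receptors, and is known for loss of RB1.

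The markers of the line were set beside the titles. RB1 averaged 7.06 ± 0.05 in the 24 h arrays and 6.83 ± 0.16 in siCONTROL on the log2 signal scale, against 10.31 ± 0.09 in MDA231 and 9.40 ± 0.01 in SUM159PT siCONTROL arrays (SD, n = 3 each). Vimentin (VIM) was high in BT549, at 11.67 ± 0.06 in the 24 h arrays and 11.89 ± 0.06 in siCONTROL. It was also high in MDA231 (12.15 ± 0.02) and SUM159PT (11.99 ± 0.01) siCONTROL arrays, so it does not set BT549 apart. CDH2, another mesenchymal marker, averaged 8.58 ± 0.18 in the 24 h arrays and 8.84 ± 0.03 in siCONTROL. In siCONTROL arrays of MDA231 and SUM159PT it averaged 5.71 ± 0.37 and 10.66 ± 0.01. ESR1, PGR, EPCAM and CDH1 averaged 3.61 to 5.21 in the 24 h arrays and 3.45 to 5.04 in siCONTROL, all below the median probe of the series at 5.27. Other luminal and epithelial markers lay above it, among them KRT18 (10.14 in 24 h arrays and 9.66 in siCONTROL), KRT8 (7.18 and 7.34) and ERBB2 (7.24 and 7.32), and FOXA1 was at 5.18 and 5.62. GATA3, a factor of luminal breast cells, averaged 8.77 ± 0.49 in 24 h arrays and 8.50 ± 0.33 in siCONTROL, against 6.36 ± 0.07 in MDA231 and 6.42 ± 0.14 in SUM159PT siCONTROL arrays. Of 17 blood, endothelial and neural markers, 14 in 24 h arrays and 13 in siCONTROL arrays averaged below the median probe. Those above it in both groups were CD68, a lysosomal glycoprotein, SYP and MBP. The log2 of the summed signal of all 17 markers ran from 9.48 to 9.86 over the 24 h arrays and from 10.08 to 10.34 over siCONTROL. Without CD68 it ran from 8.61 to 8.88 and from 8.77 to 8.89.

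One treated array stood apart. The middle 50% of probes of 24 h array A spanned 3.51 log2 units, against 3.90 and 3.92 in 24 h arrays B and C and 4.11 to 4.21 in siCONTROL. Its upper quartile was 7.50, against 7.90 and 7.93 in arrays B and C and 7.99 to 8.03 in siCONTROL, and its mean correlation with arrays B and C was 0.9703. When genes were divided into 4 equal groups by their siCONTROL level, the median gene of the next-to-brightest group differed from siCONTROL by −0.54 in array A, −0.12 in array B and −0.09 in array C. In the dimmest group the medians were 0.08, 0.16 and 0.18 for arrays A, B and C. Array A therefore read moderately and strongly expressed genes lower than its replicates did. Values without it are given for many of the results below, though not for all.

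**Figure D1:**
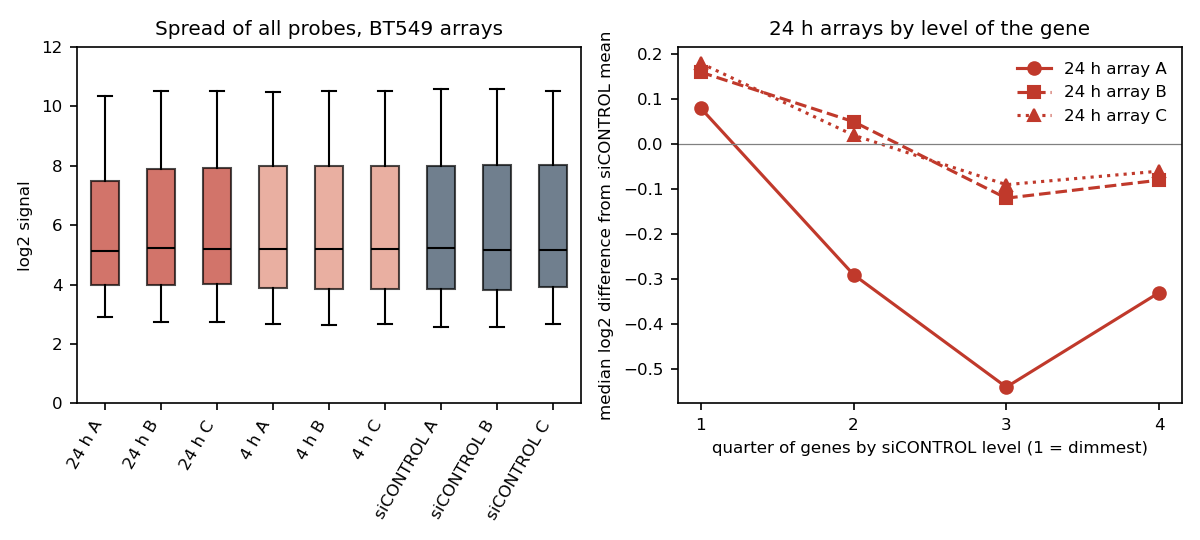
Left, the 5th, 25th, 50th, 75th and 95th percentiles of the log2 signal over all probes for the BT549 arrays at 24 h, at 4 h and in siCONTROL. Right, the median log2 difference of each 24 h array from the siCONTROL mean in 4 equal groups of genes ordered by siCONTROL level; array A reaches −0.54 where arrays B and C reach −0.12 and −0.09.

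A gene was called where limma's adjusted p was below 0.05. With all arrays 478 genes (2.66%) were called higher and 2235 genes (12.4%) lower after 24 h. Without 24 h array A the calls numbered 177 higher (0.986%) and 367 lower (2.04%). Leaving out siCONTROL array B gave 62 higher and 510 lower, and leaving out siCONTROL array C gave 294 higher and 1127 lower. When only the 6 arrays compared set the error, 15 genes were called, all of them lower. The split between directions depended on the scaling and on array A. Of all calls, 82.4% were lower as deposited, 67.5% without 24 h array A, 64.1% with array weights, 56.2% after repeated quantile normalization (555 higher and 712 lower), and 44.7% with that normalization and no array A (436 higher and 353 lower). The calls that stood with all arrays and with each of the 6 arrays left out in turn were 23 higher (0.128%) and 296 lower (1.65%).

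Of the 2235 lower genes 359 were also called lower without array A, and of the 478 higher genes 94 were also called higher. The lower genes had a median difference of −0.69 in array A and −0.33 in the mean of B and C, and the higher genes of 0.56 and 0.36, as a description, since all 3 arrays had a part in choosing them. The treated and siCONTROL arrays did not overlap for 1880 of the lower and 427 of the higher genes, where over all genes 19.1% were separated downward and 8.34% upward. The median log2 change over all genes was −0.09 with all arrays, 0.01 without array A and −0.02 after repeated quantile normalization.

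**Figure D2:**
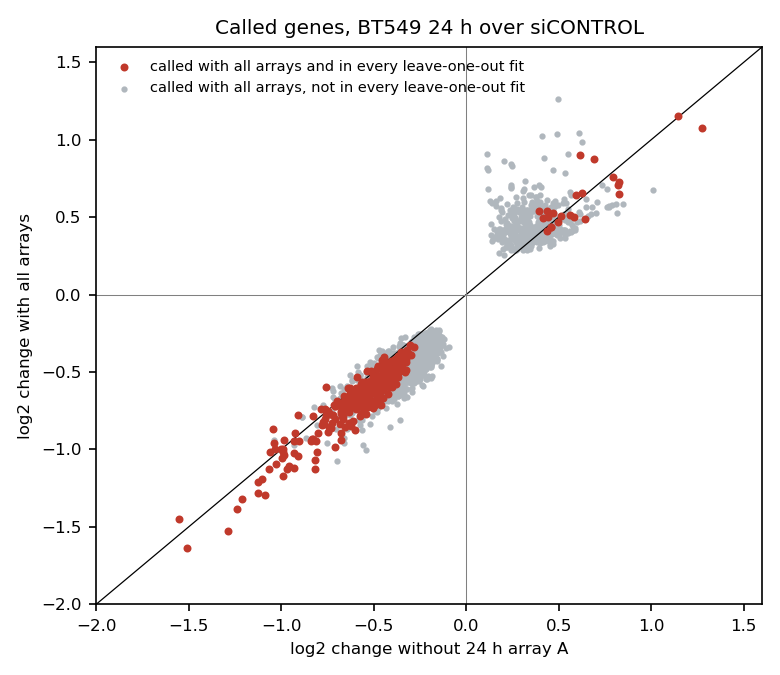
Each point is a gene called with all arrays, with the log2 change over siCONTROL without 24 h array A on the x axis and with all arrays on the y axis. Red points are the 296 lower and 23 higher genes called in every leave-one-out fit, grey points the other calls; most lower genes lie under the line of equality, which marks a larger fall when array A is included.

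EGR1, the zinc finger transcription factor of the immediate early response, had the largest fall of the genes named here. Its log2 signal was 5.91, 6.38 and 6.23 in 24 h arrays A, B and C, against 8.26, 7.54 and 7.62 in siCONTROL. The change was −1.64 ± 0.17 (SE; adjusted p = 3.02e-07), which leaves 32.1% of the siCONTROL level, and it was −1.51 without array A. Every treated array lay more than 1 log2 unit below every siCONTROL array. Its upstream sequence is shown because it holds CArG boxes, the sites of serum response factor, through which ERK signalling is known to act on this gene. The 120 bases before the start of EGR1 are at chr5:138465359-138465478 on the plus strand of GRCh38.p14 (RefSeq), with the CArG boxes in capitals.
EGR1: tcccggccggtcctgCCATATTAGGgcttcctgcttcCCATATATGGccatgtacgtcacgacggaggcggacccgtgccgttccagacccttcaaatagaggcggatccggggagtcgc
The boxes begin 105 and 83 bases before the start. CXCL8, the neutrophil chemokine interleukin 8, is shown beside it for an AP-1 site (TGANTCA), in capitals, in the 147 bases before its start at chr4:73740422-73740568, plus strand.
CXCL8: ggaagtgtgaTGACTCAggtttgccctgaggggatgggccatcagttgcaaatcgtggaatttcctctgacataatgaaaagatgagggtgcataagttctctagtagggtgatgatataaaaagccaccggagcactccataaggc
That site begins 137 bases before the start. Of the 18 called lower members of the MAPK output and immediate early lists, 11 had an entry in the promoter table, and 2 of these held any of the motifs searched on both strands in the 250 bases before a start. Over all 35116 promoters in the table, 1.16% held a CArG box, 6.57% an AP-1 site and 3.42% the ETS motif CCGGAAGT. A match is a run of letters and was not tested as a binding site.

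The MAPK output list, 43 measured genes, had 17 members called lower and 0 higher, against 12.4% of all genes lower. Its median log2 change was −0.34, beside −0.09 over all genes. Without 24 h array A the count was 6 with a median of −0.14, without siCONTROL array B it was 12, and without siCONTROL array C it was 14. The 6 members that fell in every leave-one-out fit, against 1.65% of all genes, were EGR1, DUSP4, DUSP5, TRIB1, TRIB2 and HMGA2.

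DUSP6, a cytoplasmic phosphatase that inactivates ERK, read 8.25, 8.97 and 8.74 in the 24 h arrays and 9.64, 9.64 and 9.55 in siCONTROL. The groups did not overlap, and the change was −0.96 ± 0.21 (adjusted p = 0.00365), or 51.5% of siCONTROL. The call was lost without array A, at −0.75 (adjusted p = 0.0518). DUSP5, a nuclear ERK phosphatase, read 8.52, 9.19 and 9.12 at 24 h, against 9.78, 9.77 and 9.63 in siCONTROL, a fall by 0.79 ± 0.16 (adjusted p = 0.00196) that kept its call in every leave-one-out fit. DUSP4, the nuclear phosphatase targeted elsewhere in the series, read 6.30, 6.49 and 6.43 in treated cells, against 7.03, 7.16 and 7.20 in siCONTROL. It changed by −0.72 ± 0.17 (adjusted p = 0.00607) and by −0.67 without array A (adjusted p = 0.0459), with every treated array below every control. DUSP10, which acts on JNK and p38, changed by −0.52 ± 0.12 (adjusted p = 0.00665) and lost its call without array A (adjusted p = 0.0606). Of the 10 MAP kinase phosphatases measured, these 4 were lower and 0 higher, beside 12.4% of all genes, and 2 were lower without array A, beside 2.04%.

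Of the Sprouty and SPRED inhibitors of receptor signalling, SPRY2 and SPRY4 were lower, with a wide spread between treated arrays, and SPRY1 (−0.15), SPRED1 (−0.40), SPRED2 (−0.19) and SPRED3 (−0.34) were not called. SPRY4 read 6.82, 7.79 and 7.45 at 24 h, against 8.64, 8.13 and 8.08 in siCONTROL, and SPRY2 read 7.66, 8.76 and 8.47 against 9.15, 9.20 and 9.06. Array A was the lowest of the 3 in both, although no treated array reached a control. SPRY4 changed by −0.93 ± 0.22 (adjusted p = 0.00578) and SPRY2 by −0.84 ± 0.20 (adjusted p = 0.0075), and neither was called without array A (adjusted p = 0.0837 and 0.117).

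Among the other outputs, TRIB2 and TRIB1, pseudokinases that direct protein degradation, changed by −0.79 ± 0.16 and −0.78 ± 0.16, and HMGA2, a chromatin architectural protein, by −0.67 ± 0.13. EREG, a ligand of the EGF receptor, changed by −0.77 ± 0.16 and CCND1, which encodes cyclin D1, by −0.47 ± 0.12. EREG was not called without array A. CCND1 read 8.41, 8.94 and 8.84 at 24 h, against 9.29, 9.12 and 9.20 in siCONTROL, and was not called without array A (adjusted p = 0.115). Of the 6 ETS factors on the list, ELK3 was called lower, at −0.39, but was not called without array A (−0.27). The others did not pass the test. Among these, ETV5 had a change of −0.26 ± 0.16 (adjusted p = 0.261), ETV4 of −0.41 ± 0.19 (adjusted p = 0.139) and ETV1 of 0.14 ± 0.11 (adjusted p = 0.405).

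Of 26 AP-1 and immediate early genes, 2 were called lower, EGR1 and FOSB, beside 12.4% of all genes. The same number was called without 24 h array A, beside 2.04% of all genes, and with siCONTROL array B or siCONTROL array C left out. FOSB, an AP-1 subunit, read 4.49, 4.83 and 4.98 in the treated arrays, against 5.53, 5.53 and 5.42 in siCONTROL, all near the median probe of the series. It changed by −0.73 ± 0.13 (adjusted p = 0.000862). FOS had a change of −0.37 ± 0.15 (adjusted p = 0.0875) and FOSL1 of 0.04 ± 0.16 (adjusted p = 0.892).

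**Figure D3:**
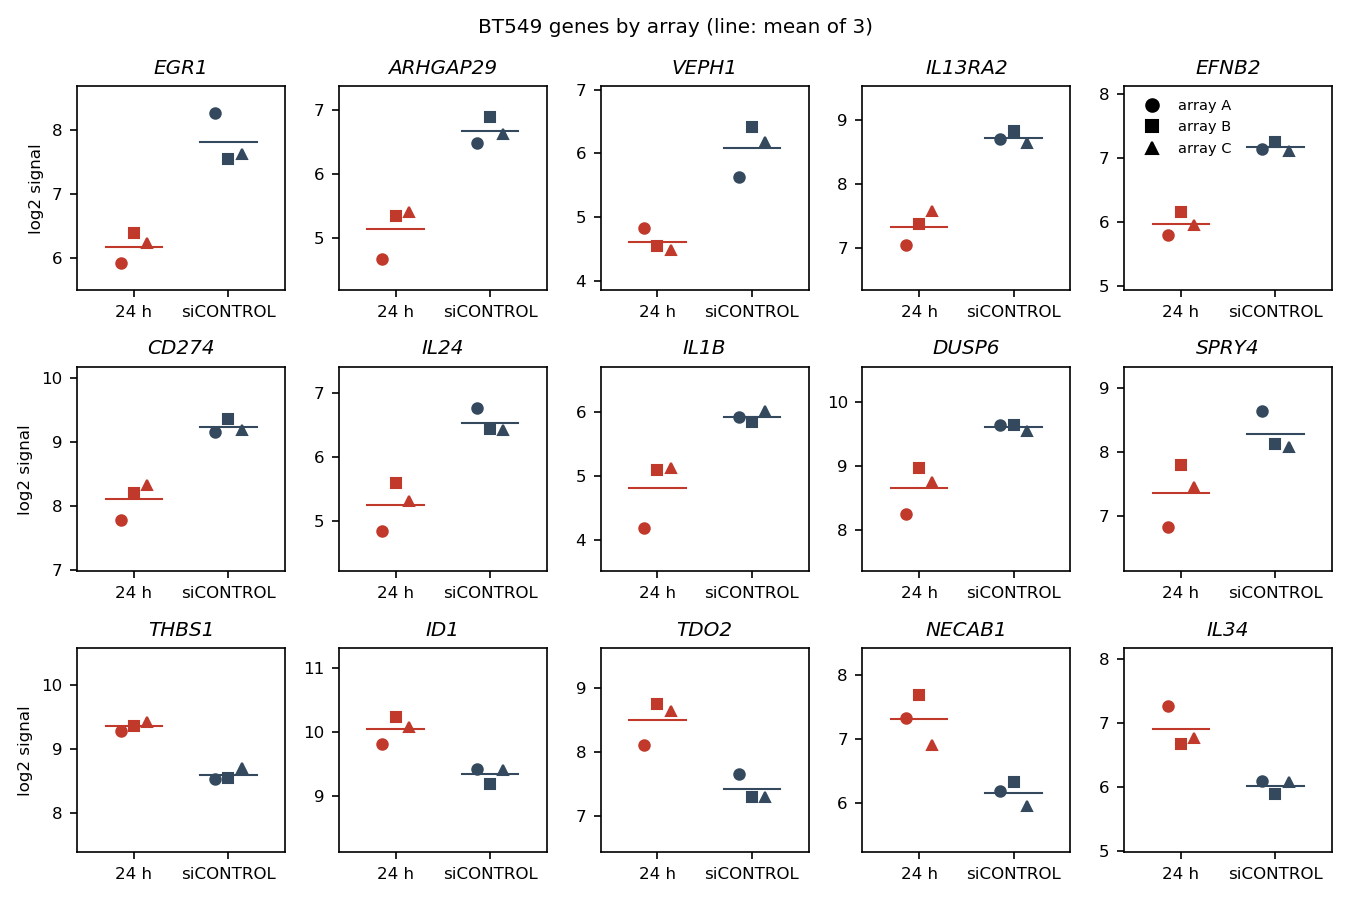
Log2 signal of 15 genes in the 3 BT549 24 h arrays (left in each panel, red) and the 3 siCONTROL arrays (right, blue), with the mean of each group as a line; every panel spans the same number of log2 units. The groups are separate in all panels, and array A (circle) is the lowest treated array for 9 of the 10 falling genes, VEPH1 being the exception.

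The largest falls named by the rule also included genes outside the MAPK output list. ARHGAP29, a GTPase-activating protein for RHOA, read 4.67, 5.35 and 5.41 at 24 h, against 6.49, 6.89 and 6.63 in siCONTROL, a change of −1.53 ± 0.16 (adjusted p = 3.81e-07). VEPH1, a pleckstrin homology domain protein, read 4.83, 4.55 and 4.49 against 5.63, 6.42 and 6.18, a change of −1.45 ± 0.18 (adjusted p = 5.01e-06). Both remained past −1.2 without array A, at −1.29 and −1.56.

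IL13RA2, a decoy receptor for interleukin 13, read 7.05, 7.38 and 7.58 in treated arrays, against 8.71, 8.83 and 8.64 in siCONTROL, a change of −1.38 ± 0.15 (adjusted p = 7.27e-07). EFNB2, the ligand ephrin B2, read 5.80, 6.15 and 5.95 against 7.15, 7.26 and 7.12, a change of −1.21 ± 0.12 (adjusted p = 1.69e-07). The groups lay about 1 log2 unit or more apart in both genes. CD274, which encodes the immune checkpoint ligand PD-L1, read 7.79, 8.21 and 8.34 at 24 h, against 9.17, 9.37 and 9.19 in siCONTROL. It changed by −1.13 ± 0.16 (adjusted p = 3.57e-05), to 45.7% of the siCONTROL level, and by −0.97 without array A. LAMB3, a chain of laminin 332 in basement membranes, read 6.40, 6.92 and 7.04 against 7.95, 7.82 and 7.94, a change of −1.12 ± 0.13 (adjusted p = 4.34e-06).

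The other falls named by the rule were of similar size and were called in every leave-one-out fit. They were ACP7, an acid phosphatase (−1.28 ± 0.16), CHGB, a secretory granule protein (−1.19 ± 0.14), WNT5A, a non-canonical WNT ligand (−1.18 ± 0.21), ENTPD7, a nucleotide hydrolase (−1.11 ± 0.14), VLDLR, a lipoprotein and reelin receptor (−1.10 ± 0.11), and STC1, a secreted glycoprotein (−1.07 ± 0.21). Of the falls so far, EGR1, ARHGAP29, VEPH1, IL13RA2, ACP7, EFNB2, CHGB, WNT5A, CD274, ENTPD7 and VLDLR, and IL24 below, were also among the 15 genes called when only the 6 arrays compared set the error.

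Some inflammatory cytokine genes fell, while most of that list did not pass the test. Of 26 measured members, 7 were lower and 0 higher with all arrays (2.66% higher and 12.4% lower over all genes), and 3 lower and 2 higher without 24 h array A, with medians of −0.02 and 0.07. IL24, an interleukin 10 family cytokine, read 4.85, 5.59 and 5.32 in treated cells, against 6.77, 6.44 and 6.42 in siCONTROL, a change of −1.29 ± 0.21 (adjusted p = 0.000349). IL1B, interleukin 1 beta, read 4.19, 5.10 and 5.13 against 5.93, 5.85 and 6.02, a change of −1.12 ± 0.19 (adjusted p = 0.000354). CSF3, the granulocyte growth factor G-CSF, changed by −0.93 ± 0.15 (adjusted p = 0.000236). These 3 were the members called in every leave-one-out fit. CXCL8 read 6.78, 8.12 and 7.69 in the 24 h arrays, against 9.12, 8.47 and 8.22 in siCONTROL, so that array B came within 0.10 of the lowest control. Its change was −1.07 ± 0.25 (adjusted p = 0.00578) and −0.70 without array A (adjusted p = 0.0928). PTGS2 (cyclooxygenase 2) and LIF changed by −0.78 ± 0.18 and −0.67 ± 0.17 and were not called without array A (adjusted p = 0.0651 and 0.0999). IL6, bright in every array at 10.22 to 10.64 after treatment and 10.50 to 10.60 in siCONTROL, had a change of −0.18 ± 0.15 (adjusted p = 0.415).

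Genes of MHC class II, which present peptides to helper T cells, were called lower. Of 19 antigen presentation genes, 6 were lower and 1 higher, beside 12.4% and 2.66% of all genes, and all 6 belong to the class II pathway. Without 24 h array A 1 was lower and 1 higher, beside 2.04% and 0.986%. Without siCONTROL array B 3 were lower and without siCONTROL array C 4. CD74, the invariant chain, was the member called in every leave-one-out fit: it read 7.62, 7.79 and 7.93 at 24 h, against 8.62, 8.40 and 8.48 in siCONTROL, and changed by −0.72 ± 0.14 (adjusted p = 0.00174). HLA-DPB1 changed by −0.72 ± 0.17, HLA-DRA by −0.71 ± 0.17 and CIITA, the class II transactivator, by −0.45 ± 0.11, and none of these was called without array A (adjusted p = 0.0756, 0.111 and 0.0917). The class I genes HLA-B and HLA-C did not pass the test. The higher member was PSMB9, an immunoproteasome subunit, at 0.52 ± 0.15 (adjusted p = 0.0172), a call that was lost without siCONTROL array B (adjusted p = 0.0873) and without siCONTROL array C (adjusted p = 0.0671).

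The TGF-beta, BMP and ID list had 10 lower members of 32 and 1 higher, beside 12.4% and 2.66% of all genes, and 4 lower and 1 higher without array A, beside 2.04% and 0.986%. Without siCONTROL array B the lower members were 4 and without siCONTROL array C 8. BMP6, a secreted BMP ligand, read 5.47, 5.94 and 5.64 after 24 h, against 6.41, 6.53 and 6.61 in siCONTROL, a change of −0.83 ± 0.13 (adjusted p = 0.000239). ID4, an inhibitor of basic helix-loop-helix factors, changed by −0.84 ± 0.18, and SKIL, a repressor of SMAD signalling, by −0.74 ± 0.16. ID1, of the same family as ID4, rose: it read 9.82, 10.24 and 10.08 in the treated arrays, against 9.42, 9.19 and 9.41 in siCONTROL, a change of 0.71 ± 0.14 (adjusted p = 0.00163). The ID genes thus went both ways at 24 h, with no overlap between the groups for ID1 or ID4.

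Matrix-degrading enzymes and matrix genes were also called in both directions. Of 29 proteases and inhibitors, 8 were lower and 2 higher, beside 12.4% and 2.66% of all genes, 2 lower and 0 higher without array A, beside 2.04% and 0.986%, 5 and 0 without siCONTROL array B, and 7 and 0 without siCONTROL array C. MMP1, interstitial collagenase, read 9.05, 8.81 and 9.38 at 24 h, against 9.87, 10.15 and 10.07 in siCONTROL, a change of −0.95 ± 0.16 (adjusted p = 0.00037) that was called in every leave-one-out fit. MMP3, stromelysin 1, read 4.18, 3.75 and 3.88 against 4.60, 4.58 and 4.45 in the dim range and lost its call without siCONTROL array B (adjusted p = 0.0695). Of 34 collagen and matrix genes, 4 were lower, close to that share, and 3 higher, and 1 lower and 2 higher without array A. Called were COL6A3 (−0.57 ± 0.12), COL3A1 (0.47 ± 0.12) and THBS1 (0.76 ± 0.09), among others. PRRX1, a mesenchymal homeobox factor, changed by −0.81 ± 0.15 (adjusted p = 0.00117), and KRT18, an epithelial keratin, by 0.49 ± 0.12 (adjusted p = 0.00719). KRT18 was not called when array A was left out (adjusted p = 0.0559).

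Single members of other pathways passed in every leave-one-out fit. LGR4, a receptor for R-spondins that strengthens WNT signalling, read 8.24, 8.46 and 8.46 after 24 h, against 8.80, 9.16 and 9.10 in siCONTROL, a change of −0.63 ± 0.09 (adjusted p = 7.62e-05), and with WNT5A it made up the 2 WNT pathway members called without array A or siCONTROL array B, where 6 of 25 were called with all arrays. PIK3R1, the regulatory subunit of PI3 kinase, changed by −0.46 ± 0.09 and the survival gene BCL2 by −0.50 ± 0.11. CD68 read 8.34, 8.61 and 8.84 in treated cells, against 9.68, 9.33 and 9.37 in siCONTROL, a change of −0.86 ± 0.15 (adjusted p = 0.000438), and was the 1 called gene among the 17 markers of other cell types. In bulk arrays fewer cells of a type and less RNA per cell cannot be told apart, and the part of other cells in the results was not tested. Of 28 lysosome and autophagy genes, 5 were lower and 1 higher, near the 12.4% and 2.66% of all genes, and 1 lower and 1 higher without array A, near 2.04% and 0.986%.

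Cell cycle genes showed little that held. The list of G1/S and replication genes had 6 lower and 0 higher of 40, near the background of 12.4%. The counts were 0 lower without 24 h array A or siCONTROL array B and 1 without siCONTROL array C. Repeated quantile normalization called 0 lower and 4 higher. CDC6, a replication licensing factor, had 9.05, 9.01 and 9.19 in treated arrays, against 9.08, 9.73 and 9.66 in siCONTROL, and the groups overlapped. Its change of −0.41 ± 0.12 (adjusted p = 0.0245) was not called without array A (adjusted p = 0.0995), siCONTROL array B (0.19) or siCONTROL array C (0.119). Of 34 G2/M genes, 5 were lower with all arrays and 1 without array A, and of 31 MYC and ribosome biogenesis genes 10 and 1, with the same counts of 1 and 1 when siCONTROL array B was left out instead. The RAS, RAF, MEK and ERK genes themselves had 6 lower of 18 with all arrays, 0 without array A or siCONTROL array B, and 2 without siCONTROL array C. Beside these counts, 12.4% of all genes were lower with all arrays and 2.04% without array A. Of all 17958 genes, 510 were lower without siCONTROL array B and 1127 without siCONTROL array C.

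With all arrays fewer genes were called higher than lower, a split that turned with repeated quantile normalization and no array A (436 higher and 353 lower). NECAB1, a neuronal calcium-binding protein, read 7.34, 7.70 and 6.91 at 24 h, against 6.19, 6.34 and 5.96 in siCONTROL, a change of 1.15 ± 0.16 (adjusted p = 2.19e-05), or 2.22-fold. TDO2, the tryptophan dioxygenase that starts the kynurenine pathway, read 8.10, 8.75 and 8.64 against 7.66, 7.30 and 7.30, a change of 1.08 ± 0.19 (adjusted p = 0.000524), or 2.11-fold. Array A was the lowest treated array for TDO2 and the middle one for NECAB1, and neither gene's groups overlapped.

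IL34, a ligand of the macrophage receptor CSF1R, read 7.26, 6.67 and 6.76 in the treated arrays, against 6.09, 5.89 and 6.08 in siCONTROL, a change of 0.88 ± 0.13 (adjusted p = 6.66e-05). THBS1, the matrix glycoprotein thrombospondin 1, had the tightest groups, 9.29, 9.36 and 9.43 against 8.54, 8.55 and 8.70, and changed by 0.76 ± 0.09 (adjusted p = 5.01e-06). It was 0.79 without array A. PAGE2B, of the PAGE antigen family (0.73 ± 0.14), SBSPON, a matrix protein with a somatomedin B domain (0.65 ± 0.11), LDAH, a lipid droplet hydrolase (0.65 ± 0.14), and ELOVL4, an elongase of very long fatty acids (0.65 ± 0.13), also rose in every leave-one-out fit. LDAH and ELOVL4 were dim, at most 4.23 and 4.11 in any treated array.

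Other rises depended on which arrays were kept. MGP, matrix Gla protein, read 8.72, 9.92 and 9.53 at 24 h, against 9.30, 8.49 and 8.35 in siCONTROL, so treated array A lay below siCONTROL array A. MGP changed by 0.68 ± 0.20 with all arrays (adjusted p = 0.0239), by 1.01 without array A (adjusted p = 0.00206), and was not called without siCONTROL array B or siCONTROL array C (adjusted p = 0.137 for each). FADS2, a fatty acid desaturase, LPCAT3, a phospholipid acyltransferase, and CLDN16, a tight junction protein, had the same layout, with overlapping groups and larger changes without array A (0.79, 0.81 and 0.85) than with it (0.58, 0.59 and 0.58). All 3 lost their calls without siCONTROL array B (adjusted p = 0.0699, 0.0643 and 0.0947), and FADS2 and CLDN16 also without siCONTROL array C. GPNMB, a lysosomal and melanosomal glycoprotein, and ARHGEF6, an exchange factor for RAC1, rose by 0.60 ± 0.16 and 0.62 ± 0.15 without overlap, and likewise lost their calls without siCONTROL array B (adjusted p = 0.0506 and 0.101).

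The 24 h arrays were compared with the 4 h arrays to set the later response beside the early one. At 4 h 29 genes (0.161%) were higher and 88 (0.49%) lower than siCONTROL. Between the times, 343 genes (1.91%) were higher and 1046 (5.82%) lower at 24 h than at 4 h. Without 24 h array A these were 136 higher (0.757%) and 142 lower (0.791%), and with a 4 h array left out the calls numbered 388 to 502 in all. With only the 6 arrays of the times compared 0 genes were called by limma, with 2842 at an unadjusted p under 0.05. The 4 h and 24 h changes share their siCONTROL arrays, so their values are given side by side.

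EGR1 was low at both times, at 6.11, 6.14 and 6.40 after 4 h, and its 24 h minus 4 h difference was −0.05 ± 0.17 (adjusted p = 0.881). Of the feedback inhibitors, SPRY4 and DUSP6 were lower at 4 h than at 24 h, while DUSP4, with a 24 h minus 4 h difference of −0.06 ± 0.17 (adjusted p = 0.851), DUSP5 (0.18 ± 0.16, adjusted p = 0.46) and SPRY2 (0.47 ± 0.20, adjusted p = 0.138) did not pass the test. SPRY4 read 6.90, 6.79 and 5.78 at 4 h, and was 0.86 ± 0.22 higher at 24 h (adjusted p = 0.0165), or 1.13 higher without array A (adjusted p = 0.0107). DUSP6 read 8.50, 8.16 and 7.36 at 4 h and was 0.65 ± 0.21 higher at 24 h (adjusted p = 0.0489). For both SPRY4 and DUSP6 array C was the lowest 4 h array, and 24 h array A lay below 4 h array A, so the times overlapped. Of 14 called differences between the times that were rerun, 3 lost their calls without 4 h array C. CXCL8 had a change of −1.65 at 4 h and −1.07 at 24 h, a difference that did not pass the test (adjusted p = 0.136) but did without array A (0.95, adjusted p = 0.0404). Of the 43 MAPK output genes, 14 were lower at 4 h, beside 0.49% of all genes, and 17 at 24 h, beside 12.4%. Without 24 h array A the 24 h count was 6, beside 2.04% of all genes. The list counts at the 2 times therefore stand against very different shares of all genes.

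Other genes differed between the times, all but SNAI2 without a call at 4 h. SPATA13, an exchange factor for RAC1 and CDC42, read 5.88, 5.80 and 6.14 at 4 h and 4.81, 5.09 and 5.21 at 24 h, a difference of −0.90 ± 0.12 (adjusted p = 0.000331). TCP11L2 differed by −0.89 ± 0.13 (adjusted p = 0.000521) and CAMK2N1, an inhibitor of CaM kinase II, by −0.85 ± 0.16 (adjusted p = 0.00384), and their 4 h changes from siCONTROL were −0.11 and 0.04 and not called. TDO2 was 1.01 ± 0.19 higher at 24 h than at 4 h (adjusted p = 0.00254), and ID4 was lower, at −0.86 ± 0.18 (adjusted p = 0.00585). SNAI2, the mesenchymal transcription factor Slug, rose at 4 h (0.84, adjusted p = 0.00339), to 8.89, 9.36 and 9.91, and read 8.29, 8.22 and 8.54 at 24 h, a difference of −1.04 ± 0.16 (adjusted p = 0.000521). Its 24 h arrays lay within the range of siCONTROL, with a change of −0.19 ± 0.16 (adjusted p = 0.408). All 6 of these differences were called without array A as well.

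**Figure D4:**
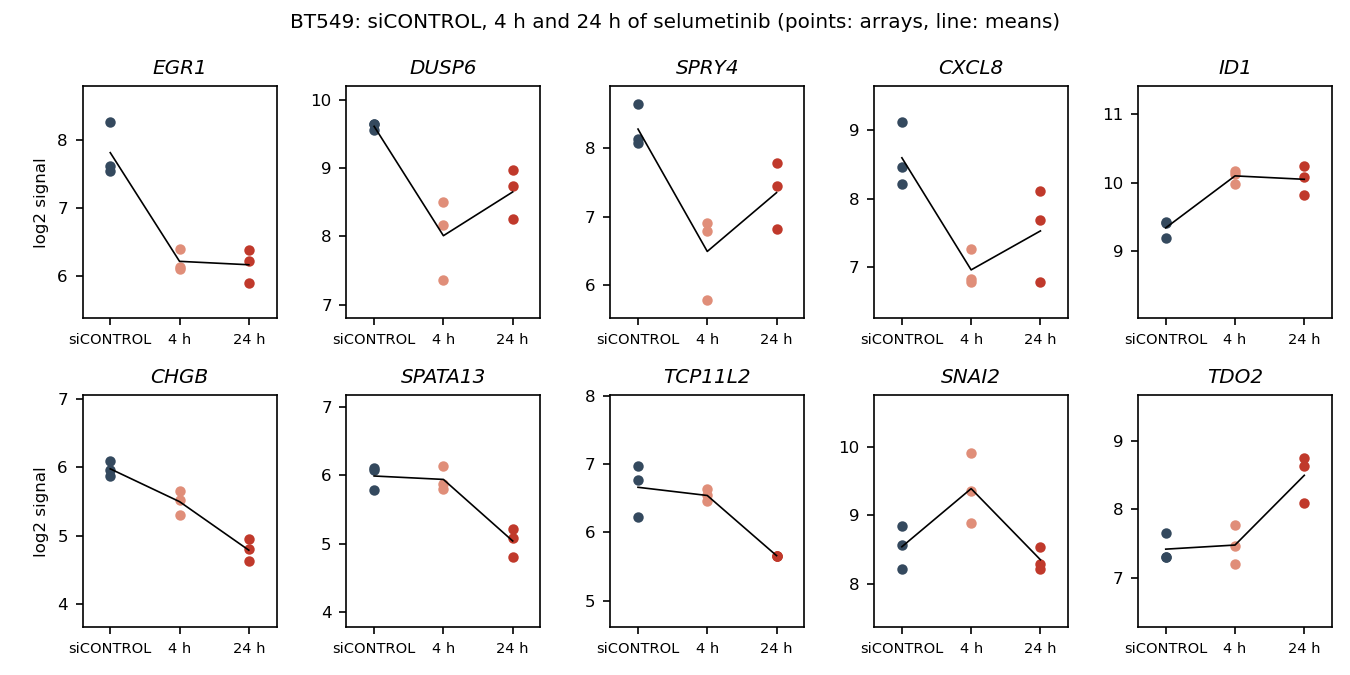
Log2 signal of 10 genes in BT549 siCONTROL cells and after 4 h and 24 h of selumetinib, with points for arrays and a line through the group means. The 4 h and 24 h means of EGR1 and of ID1 lie within 0.05 of each other. The means of DUSP6 and SPRY4 are higher at 24 h than at 4 h, with arrays of the times that overlap. SPATA13, TCP11L2 and TDO2 lie close to siCONTROL at 4 h and apart from it at 24 h, and SNAI2 is highest at 4 h.

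The 24 h response of BT549 was then set against that of the other lines, each measured from its own siCONTROL arrays. Against MDA231, 467 genes (2.6%) had a higher and 1144 (6.37%) a lower change in BT549, and against SUM159PT 81 (0.451%) and 228 (1.27%). Without BT549 24 h array A the counts against MDA231 were 729 higher (4.06%) and 733 lower (4.08%), close to even. The count against SUM159PT was 139 in all, in place of 309, without BT549 siCONTROL array B. It was 193 without BT549 siCONTROL array C, 518 without BT549 24 h array B, and 153 to 191 without 1 of the SUM159PT arrays other than 24 h array A.

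MAPK output fell less in BT549 than in MDA231. In MDA231 34 of the 43 genes were lower at 24 h, beside 10.3% of all genes, and in SUM159PT 18 were, beside 2.94%, against 17 in BT549. The median log2 change over the list was −0.34 in BT549, −1.17 in MDA231 and −0.43 in SUM159PT. The change was higher in BT549 than in MDA231 for 22 members and lower for 1, beside 2.6% and 6.37% of all genes. Without array A these were 27 and 1, beside 4.06% and 4.08%. Against SUM159PT these counts were 5 and 1, beside 0.451% and 1.27% of all genes. Without array A they were 8 and 1, beside 127 and 103 of all 17958 genes. DUSP6 changed by −0.96 in BT549, −3.16 in MDA231 and −2.28 in SUM159PT, and the BT549 change differed from both (by 2.21 ± 0.29, adjusted p = 2.83e-06, and by 1.32 ± 0.29, adjusted p = 0.0139). SPRY4 changed by −0.93 in BT549 and −3.26 in MDA231, with an adjusted p of 2.09e-06 for the difference, while the difference from SUM159PT, at −1.35, did not pass the test (0.43 ± 0.30, adjusted p = 0.529).

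Among the ETS factors, ETV4 and ETV5 differed between BT549 and both other lines. ETV5 read 9.39, 9.65 and 9.82 in treated BT549 cells and 9.70, 9.94 and 10.01 in siCONTROL, while its change was −2.28 in MDA231 and −2.03 in SUM159PT. The differences of 2.02 and 1.77 had adjusted p of 9.91e-08 and 1.18e-05. ETV4 differed by 2.14 from MDA231 and by 1.23 from SUM159PT (adjusted p = 1.6e-06 and 0.0144). ETS1 and ETS2 did not differ from MDA231 by the test, with changes of −0.18 and −0.11 in BT549 and −0.41 and 0.12 in MDA231. TRIB2 was the exception of the list, at −0.79 in BT549 and 0.57 in MDA231 (difference −1.36 ± 0.23, adjusted p = 0.000141).

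**Figure D5:**
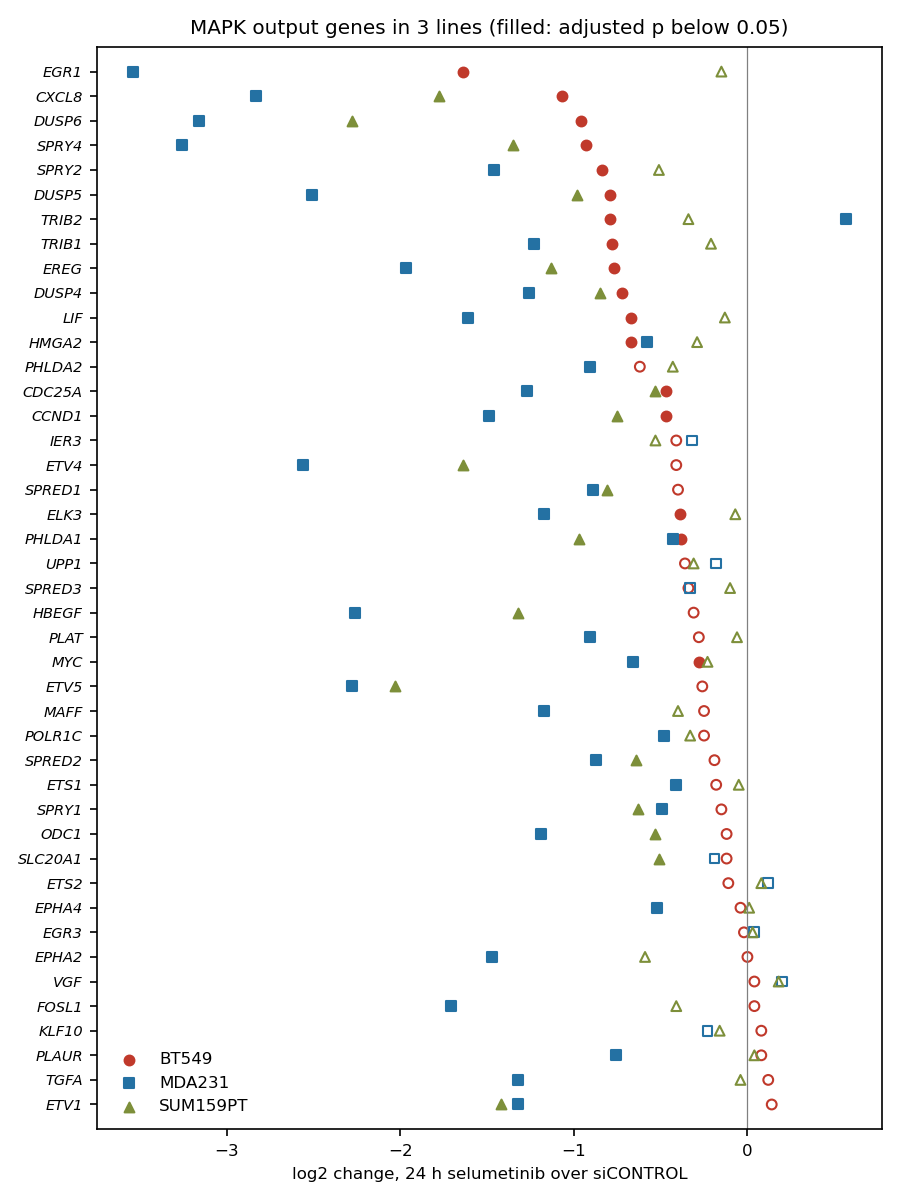
Log2 change after 24 h of selumetinib over siCONTROL for the 43 MAPK output genes in BT549 (circles), MDA231 (squares) and SUM159PT (triangles), filled where the gene was called in that line and ordered by the BT549 change. The BT549 points lie between −1.64 and 0.14, while MDA231 reaches −3.54 at EGR1.

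EGR1 ordered the lines differently, at −1.64 in BT549, −3.54 in MDA231 and −0.15 in SUM159PT. Its change in BT549 differed from MDA231 by 1.90 ± 0.24 (adjusted p = 1.11e-06) and from SUM159PT by −1.49 ± 0.24 (adjusted p = 0.000417). Falls of EFNB2, CHGB and VLDLR were larger in BT549 than in either line. EFNB2 differed by −0.72 and −1.22, CHGB by −1.20 and −1.08, and VLDLR by −0.66 and −1.17, with adjusted p of at most 0.00642 and all 6 called without array A. CD274 was called lower in all 3 lines, with changes of −1.13 in BT549, −1.99 in MDA231 and −0.75 in SUM159PT.

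Several MHC class II genes rose in MDA231 and not in BT549, where most calls of a fall were lost without array A. HLA-DPB1 changed by −0.72 in BT549 and 1.06 in MDA231, a difference of −1.79 ± 0.24 (adjusted p = 3.03e-06), and HLA-DRA by −0.71 and 0.82, a difference of −1.53 ± 0.25 (adjusted p = 6.56e-05), and both differences were called without array A. Of the 19 antigen presentation genes 9 had a lower change in BT549 than in MDA231 and 0 a higher one, beside 6.37% and 2.6% of all genes. Without array A these were 8 and 0, beside 4.08% and 4.06%. The replication genes separated the lines as well: 32 of 40 G1/S genes were lower in MDA231 and 17 in SUM159PT, beside 10.3% and 2.94% of all genes. The change was higher in BT549 than in MDA231 for 15 and lower for 0, beside 2.6% and 6.37%. Without array A these were 24 and 0, beside 4.06% and 4.08%. Against SUM159PT 2 of these 40 differed, and 6 without array A, all with a higher change in BT549. Over all genes 0.451% had a higher change there, and 127 of 17958 without array A.

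Knockdown of DUSP4 in the same line shares the siCONTROL arrays, and its values are given beside those of selumetinib. EGR1 changed by −1.64 after 24 h of selumetinib and by 1.31 after siDUSP4, and IL24 by −1.29 and 0.92. THBS1 changed by 0.76 after selumetinib and by −1.04 after siDUSP4, whereas MMP1 changed by −0.95 and −1.98 and PRRX1 by −0.81 and −1.84. VEPH1 changed by −1.45 after selumetinib and −1.20 after siDUSP4.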

How the data were processed

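The authors deposited log2 signals of 36 single-colour arrays. The submitters' processing notes name RMA and Expression Console 1.1, while its options and the genome build behind the probes are not given here. Of 33297 probes, 19181 had 1 gene symbol in the platform annotation, 2055 several and 12061 were unlisted. For 895 genes with several probes the one of highest mean was kept. No filter on dim genes was applied. In limma 3.58.1 (R 4.3.3) the 36 arrays entered one model of 12 group means, with 24 residual degrees of freedom and 7.8 from the prior. Every adjusted p is limma's, with Benjamini-Hochberg adjustment over 17958 genes, and SE is limma's. The test was checked on simulated data with independent errors, each gene having the same spread on every array. No simulated array read genes low as 24 h array A did, so the check does not cover the effect of such an array. The number of arrays limits the precision. Changes are 24 h minus siCONTROL on the log2 scale, and percentages are 2 to that power.

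The members and the 36 gene lists were chosen with earlier results of these data known, and some genes are on several lists. Named were DUSP4 and DUSP6, the 15 largest rises and 15 largest falls called with all arrays and without 24 h array A (unnamed loci, small RNAs and pseudogenes passed over), up to 5 called members per list of smallest adjusted p, the 8 largest differences each way between 24 h and 4 h, and genes of smallest p between lines. CXCL8 was added by the promoter rule, and SPRY1, SPRY2, the SPRED genes, ETV4, ETV5, ETS1, ETS2, ELK3, HLA-B, HLA-C, FOSL1, FOS, LIF, IL6, RB1 and the other markers of the line were named outside the rule after their values were seen. Motifs were sought in RefSeq promoters of GRCh38.p14. Alternatives were the arrays of BT549 or of the groups compared alone, a replicate block, repeated quantile normalization, aligned medians, a filter on dim genes, the mean of all probes, array weights and each array left out.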

Additional observations from a re-analysis of the deposited data

Results flagged for a closer look

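The line comparison of 33 named genes gave 27 whose 24 h change in BT549 differed from that in MDA231 and 17 that differed from SUM159PT by limma's test of the difference, of which 27 and 16 were also called without BT549 24 h array A. The exception was LGR4 against SUM159PT (−0.51). Over all 17958 genes 1611 differed from MDA231 and 309 from SUM159PT. Genes of smallest p between the lines were among those named, and others were named after their values were seen. The high counts among the 33 were therefore partly fixed in advance.

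Higher in BT549 than in MDA231, that is a smaller fall or a larger rise, were the changes of SPRY4 (2.34), DUSP6 (2.21), ETV4 (2.14), ETV5 (2.02), EGR1 (1.90), CXCL8 (1.76), FOSL1 (1.75), DUSP5 (1.73), IL1B (1.54), ETV1 (1.45), EREG (1.19), NECAB1 (1.08), CCND1 (1.03) and CD274 (0.86). Lower in BT549 than in MDA231 were those of HLA-DPB1 (−1.79), ID4 (−1.58), HLA-DRA (−1.53), LGR4 (−1.43), TRIB2 (−1.36), WNT5A (−1.34), GPNMB (−1.27), CHGB (−1.20), CD74 (−1.05), IL6 (−0.91), CIITA (−0.76), EFNB2 (−0.72) and VLDLR (−0.66).

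Against SUM159PT the change was higher in BT549 for CCL20 (2.48), ETV5 (1.77), TDO2 (1.71), ETV1 (1.55), DUSP6 (1.32), IL6 (1.30), ETV4 (1.23), NECAB1 (1.12), ID1 (1.04) and THBS1 (0.82), and lower for EGR1 (−1.49), EFNB2 (−1.22), IL13RA2 (−1.21), VLDLR (−1.17), ID4 (−1.16) and CHGB (−1.08). ETV1 was below the median probe in BT549 with and without the drug, at 4.00 to 4.19 in 24 h arrays and 3.70 to 4.11 in siCONTROL, so a fall there could hardly have been measured and its differences say little about the response. CCL20, a chemokine, was dim in BT549 with and without the drug, at 4.23 to 4.38 in 24 h arrays and 4.30 to 4.40 in siCONTROL, and fell by 2.52 in SUM159PT.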

How the results depend on the processing

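Of 69 named genes called at 24 h, none changed direction under any alternative run that kept them. Over all genes, the 2235 lower and 478 higher calls also all kept their direction in the mean of 24 h arrays B and C. An unchanged direction therefore does not set the named genes apart. Calls were lost for 57 of them with the arrays of the groups compared alone, 18 with repeated quantile normalization and no 24 h array A, 16 without 24 h array A, 12 without siCONTROL array B, 6 without siCONTROL array C, 4 or fewer without each other array, 10 with BT549 arrays alone, 6 with repeated quantile normalization, and 1 each with array weights, the mean of all probes and the replicate block. With dim genes left out 61 of the 69 remained, all of them called. The largest rises and falls had been named because they were also called without 24 h array A, so their calls in that run were fixed in advance. Over all genes, 359 of 2235 lower and 94 of 478 higher calls were kept without that array. Of 2713 calls at 24 h (478 higher, 2235 lower), there were 1379 (224 and 1155) with BT549 arrays alone, 15 (0 and 15) with the groups compared alone, where 3112 had an unadjusted p under 0.05, 1267 (712 lower) with repeated quantile normalization, and 789 (353 lower) with that and no 24 h array A. The higher calls were 131 with dim genes left out and 1194 with array weights. With each array left out in turn the calls ranged from 544 to 3746, higher ones from 62 to 681 and lower ones from 367 to 3116. Between 24 h and 4 h, 1389 calls became 529 with BT549 arrays alone, 0 with the groups compared alone, 378 with repeated quantile normalization, and 278 to 2369 with each array left out. The calls against MDA231, 1611, became 2632 with array weights and 1165 to 1990 with each array left out. Against SUM159PT, 309 became 557 with repeated quantile normalization, 1357 with array weights, and 139 to 518. Of 805 distinct list members, 151 were called, 95 with BT549 arrays alone, 4 with the groups compared alone, 77 with repeated quantile normalization and no 24 h array A, and 51 to 178 with each array left out. The cause of these shifts was not tested. With the replicate letter as a block the counts were 2734 at 24 h, 1435 against 4 h, 1589 against MDA231, 332 against SUM159PT and 143 list members. Same-letter arrays at 24 h and in siCONTROL had deviations correlated at −0.094, −0.072 and 0.031, so the letters were not treated as pairs.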

Other observations

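Genes not named above were also called lower in every leave-one-out fit. PDGFA, a platelet-derived growth factor chain, read 7.02, 7.60 and 7.68 in the 24 h arrays, against 8.19, 8.23 and 8.38 in siCONTROL, a change of −0.83 ± 0.15 (limma, adjusted p = 0.00112). MXD1, a MAX partner that opposes MYC, read 9.15, 9.34 and 9.51 against 10.12, 10.09 and 10.09, a change of −0.77 ± 0.14 (adjusted p = 0.000745). In both genes every treated array lay below every control. The Notch ligand DLL1 changed by −0.77 ± 0.17, the integrin ITGA10 by −0.68 ± 0.11, the interferon-induced gene IFI44L by −0.63 ± 0.12, the hyaluronan receptor HMMR by −0.53 ± 0.11, the histone demethylase KDM3A by −0.51 ± 0.11 and the chaperone HSPH1 by −0.36 ± 0.08. In the lists, 5 of 22 secreted growth factors, 3 of 18 Notch genes, 4 of 23 integrins and adhesion genes, 1 of 26 interferon genes, 2 of 28 glycolysis and hypoxia genes and 4 of 23 heat shock and unfolded protein genes were lower with all arrays, beside 12.4% of all genes. Without 24 h array A these counts were 1, 1, 1, 1, 2 and 1 in the same order, beside 2.04% of all genes.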
